A study of Mus musculus with 12 samples.

Results

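Fetal liver cells with and without a detected transcript of Mki67, the gene of the proliferation antigen Ki-67, were compared in mouse single-cell RNA libraries. Of 480 fetal liver wells, 454 passed a filter of at least 1000 genes, at least 3000 unique molecular identifiers (UMIs) and under 20% mitochondrial UMIs, out of 1020 such cells in the whole series of 12 plates. The 156 cells with 1 or more Mki67 UMIs are called Mki67+ and the 298 cells with 0 are called Mki67-. The cells were chosen by their Mki67 UMIs, so these are given as a description, and Mki67 was taken out of every comparison. All cells of both groups carry the label HSC (haematopoietic stem cell) and the tissue label fetal liver. They fill 5 plates of 96 wells, and plates 1 to 3 share 1 origin code while plates 4 and 5 share another. No label says whether a code is 1 animal or a pool, so p-values over plates measure the spread between plates, which may be technical. The study used mouse lines made for lineage tracing. The labels of these plates give neither the line nor its alleles, the age of the animals, or the surface markers of the sort.

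Ki-67 coats mitotic chromosomes and keeps them apart. Its transcript accumulates in cycling cells through S and G2 phase and is low in resting cells, which makes it a common marker of proliferation. The fetal liver is the organ in which blood stem cells expand before birth, while most adult stem cells in bone marrow rest. The late cell cycle programme that Ki-67 belongs to includes the cyclin B kinase, the condensins, the kinetochore and the ubiquitin ligase that ends mitosis.

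Defining blood stem cell genes were present in the fetal liver cells. A UMI of Cd34 was found in 423 of 454 cells, of Procr in 415, of Ly6a in 382, of Hlf in 369, of Mecom in 353, of Kit in 313, of Ptprc in 257 and of Slamf1 in 96. Fetal liver plates held 3384993 to 8140383 UMIs in kept cells. All 26 wells left out fell under the gene minimum, the richest with 950 genes, and they held 1 Mki67 UMI together. All plates use the same 96 well barcodes, and wells with the same barcode on different plates correlated as wells with different barcodes did (median r of 0.461 and 0.459). Plate 5 stood apart: its cells had a median of 2 UMIs per detected gene in both groups of cells, against 4 to 9 on plates 1 to 4, and several histone genes were low on both sides.

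The share of Mki67+ cells was 36.8%, 35.4%, 26.8%, 29.3% and 42.7% on plates 1 to 5. Among the 156 Mki67+ cells, 78 had exactly 1 Mki67 UMI, 32 had 2 to 4 and 46 had 5 or more, with a maximum of 80. A cell with 0 UMIs may still carry the transcript, since more deeply read cells have a larger chance of showing it. Mki67+ cells had more UMIs on every plate, with plate medians of 76219 ± 29777 against 48500 ± 15037 in Mki67- cells (SD, n = 5 plates). Each Mki67+ cell was therefore paired with an Mki67- cell of the same plate and similar UMI total, which gave 28, 33, 20, 22 and 32 pairs on plates 1 to 5, or 135 in all. The other 21 Mki67+ cells were left out because the partner assigned to them lay over 0.5 away on the log2 scale. After matching, the plate medians were 69244 ± 23141 UMIs in Mki67+ cells and 64711 ± 22064 in Mki67- cells, with ratios of 1.01 to 1.20. Detected genes remained more numerous on all 5 plates, at 4575 ± 281 in Mki67+ cells and 4298 ± 222 in Mki67- cells. The mitochondrial share of UMIs averaged 0.182% on both sides. By plate it differed, with ratios of 0.503 to 2.30, and it was higher in Mki67+ cells on 3 of 5 plates.

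Genes of G2 phase and mitosis made up most of what was higher in Mki67+ cells. Summed UMIs per plate and side were tested in edgeR with the plate as a block, over 8959 genes, and a gene was called at a Benjamini-Hochberg adjusted p under 0.05. In Mki67+ cells 37 genes were higher, or 0.413% of those tested, and 10 genes were lower, or 0.112%. Of the 37, 27 belong to the lists of G2 and M phase genes, 5 to the list of histones and 5 to no list. Of 131 listed G2 and M phase genes, 122 passed the filter on low counts, which a gene can pass through the side where it is high. The called rises ran from 1.37-fold to 11.5-fold with a median of 3.12-fold. All but Ccna2 were higher on every plate. Without plates 1 to 5 in turn, the number of called genes was 5, 29, 7, 5 and 43, and each of the 37 kept a log2 fold change above 0 every time, a direction that choosing them on all 5 plates favours. With the counts of cells that hold a UMI in place of UMIs 0 genes were called, and 20 of 34 tested among the 37 were above 0 (median 0.11, against 1.64). With mean depth as a covariate over all cells 0 were called, and 30 of 37 were above 0 (median 0.37).

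The mitotic entry list holds the kinases and cyclins that drive a cell into mitosis, and 6 of its 17 tested members rose and none fell, with a median log2 fold change of 1.28 against 0.01 over all tested genes. Cdk1, the kinase at its centre, had 322, 299.9, 284, 396 and 321 CPM (UMI counts scaled to the library's total) in Mki67+ cells of plates 1 to 5, against 113, 158, 181, 146 and 269.8 CPM in Mki67- cells. The groups did not overlap, although the Mki67- cells of plate 5 came close (log2 fold change 0.96 ± 0.18 (SE), adjusted p = 0.0209 in edgeR). Its partner Ccnb2, cyclin B2, had 414, 293, 215, 248 and 277 CPM in Mki67+ cells and 141, 144, 109, 108 and 165 CPM in Mki67- cells (1.11 ± 0.16, adjusted p = 0.00396). Ccnb1, cyclin B1, had 206, 161, 130.5, 178 and 84.0 CPM in Mki67+ cells and 51.9, 78.5, 43.5, 73.3 and 60.7 CPM in Mki67- cells (1.28 ± 0.24, adjusted p = 0.0209). Both cyclins were higher on every plate without overlap, and the smallest Ccnb1 difference was on plate 5. Plk1, a kinase that acts from centrosome maturation to cytokinesis, had 78.7, 73.6, 81.1, 89.4 and 58.5 CPM in Mki67+ cells, against 5.98, 35.6, 16.8, 8.05 and 21.5 CPM in Mki67- cells (2.34 ± 0.44, adjusted p = 0.0209). Aurkb, the kinase that corrects faulty attachments of chromosomes to the spindle, rose by 2.01 ± 0.35 on the log2 scale. Ccna2, cyclin A2, rose by 1.92 ± 0.41, yet on plate 5 it stood at 4.94 CPM in Mki67+ cells and 7.47 CPM in Mki67- cells. Cks2, a small protein that binds Cdk1 and is in none of the lists, rose by 1.12 ± 0.14 (adjusted p = 0.00136).

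Of the spindle checkpoint and chromosomal passenger list, 3 of 10 tested members rose and all 10 had log2 fold changes above 0 (median 1.57). Birc5, or survivin, which brings Aurkb to the centromere, had 503, 460.4, 531, 405 and 331 CPM in Mki67+ cells of plates 1 to 5 and 167, 149, 149, 75.6 and 185 CPM in Mki67- cells. Every Mki67+ value lay above every Mki67- value (1.66 ± 0.18, adjusted p = 0.00018). Cdca8, or borealin, a further subunit of that complex, had 300.3, 215, 272, 208 and 191 CPM in Mki67+ cells, against 93.3, 89.8, 61.0, 56.3 and 157 CPM in Mki67- cells (1.46 ± 0.23). Cdca3, a factor that promotes entry into mitosis, rose by 1.79 ± 0.28. Its groups overlapped slightly, with 85.7 CPM in Mki67+ cells of plate 5 against 86.7 CPM in Mki67- cells of plate 2.

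Kinetochore and centromere genes and genes of the spindle showed the same direction throughout. All 27 tested members of the kinetochore list had log2 fold changes above 0, 4 of them called, with a median of 1.15. Cenpa, the histone H3 variant that marks the centromere, had 427, 351, 277, 317 and 279 CPM in Mki67+ cells and 136, 190.0, 131, 132 and 268 CPM in Mki67- cells (0.99 ± 0.19). Spc25, part of the complex that binds spindle microtubules, had 180.1, 125, 177, 186 and 184 CPM in Mki67+ cells, against 50.9, 80.0, 61.7, 56.8 and 109 CPM in Mki67- cells (1.29 ± 0.23). Cenpw, a protein of the inner kinetochore, rose by 0.82 ± 0.16. All 29 tested members of the kinesin, spindle and cytokinesis list were above 0, 7 of them called, with the highest median of all lists at 1.79. Kif11, the motor that pushes spindle poles apart, had 79.6, 37.3, 30.4, 56.6 and 7.41 CPM in Mki67+ cells, against 3.99, 11.4, 2.10, 4.47 and 1.87 CPM in Mki67- cells (3.14 ± 0.59). It was higher within every plate, but the Mki67+ value of plate 5 lay below the Mki67- value of plate 2. Nusap1 and Ckap2l, which bind spindle microtubules, rose by 2.26 ± 0.42 and 2.65 ± 0.49. Hmmr (1.99 ± 0.33) and the chromosome-bound kinesin Kif22 (1.79 ± 0.34) rose too, and the abundant tubulins Tuba1b and Tubb5 by only 0.47 each.

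Chromosome structure genes rose in 4 of 22 tested cases. Top2a, the topoisomerase that untangles sister chromatids, had 348, 142, 345, 229 and 112 CPM in Mki67+ cells of plates 1 to 5, against 60.3, 57.8, 35.8, 37.6 and 98.9 CPM in Mki67- cells (1.99 ± 0.34, adjusted p = 0.0134). The plate 5 values lay closest together. Smc2 (1.13 ± 0.24) and Smc4 (0.74 ± 0.16), the core of condensin, both rose. Hmgb2, an abundant DNA-bending protein, had 1721, 1526, 1597, 1338 and 1820.5 CPM in Mki67+ cells and 1051, 1065, 1162, 812 and 1698 CPM in Mki67- cells (0.50 ± 0.08, adjusted p = 0.00737). Of 17 tested genes of the anaphase-promoting complex, the ligase that ends mitosis, 3 rose. These were its activator Cdc20 (1.62 ± 0.27), its ubiquitin-conjugating enzyme Ube2c (1.64 ± 0.31) and its inhibitor Fbxo5 (1.81 ± 0.37), while the median over the list was 0.18. Ube2c had 483, 303, 389, 359.8 and 303 CPM in Mki67+ cells, against 82.3, 251, 42.1, 110.4 and 191 CPM in Mki67- cells, with no overlap.

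A sum over cells can be higher because more cells hold a transcript or because each holds more of it. After thinning to 20000 UMIs, Top2a was found in 80 of 132 matched Mki67+ cells and in 48 of 132 matched Mki67- cells. Cdk1 was found in 113 Mki67+ and 85 Mki67- cells, with a higher share on 4 of 5 plates, and Ube2c in 111 Mki67+ and 82 Mki67- cells, higher on 5. Ccnb1 was found in 75 Mki67+ and 59 Mki67- cells, higher on 3 of 5 plates. In the fit on counts of cells with a UMI, which were not thinned, the log2 fold changes were -0.00965 for Cdk1, -0.026 for Ube2c and -0.075 for Ccnb1, none of them called. That fit scales to each library's total of such counts, so it compares a gene's share of all detections, not the share of cells. Mki67+ cells had more detected genes. By the counts of thinned cells, transcripts of mitosis were found in many cells without an Mki67 UMI. Procr, by contrast, was found in 112 of 132 cells on either side.

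**Figure D1:**
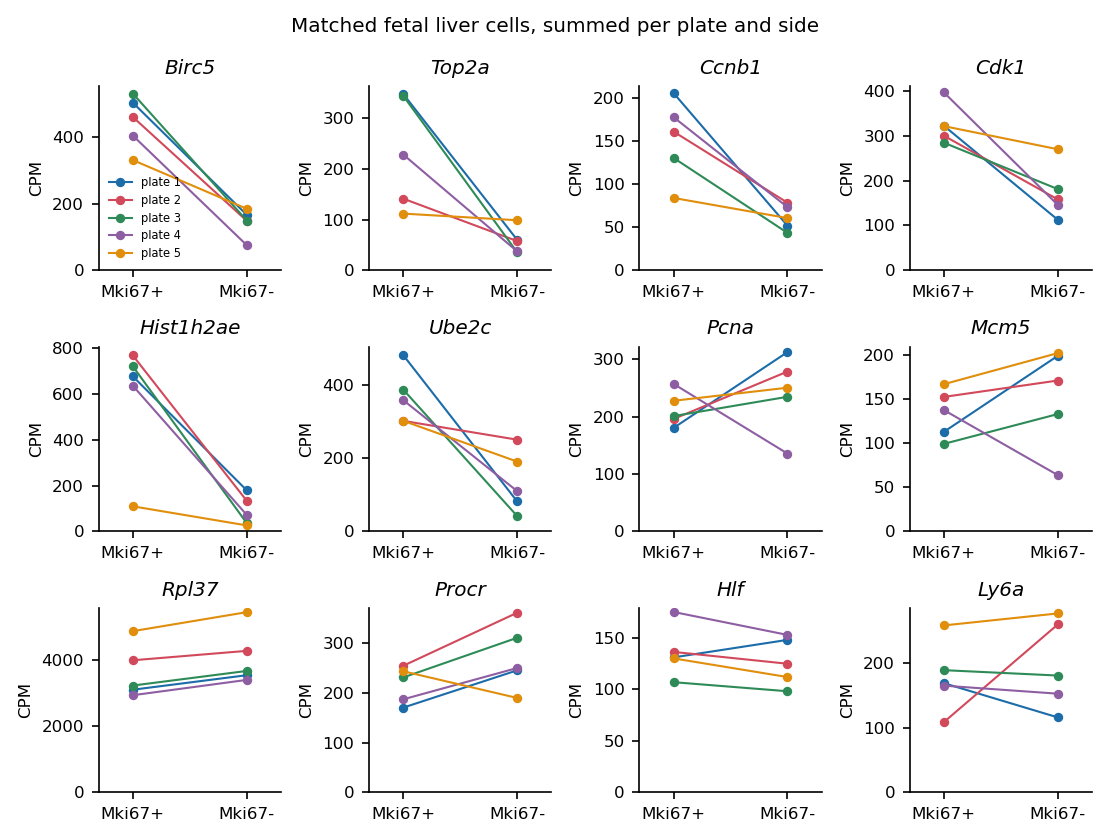
CPM of 12 genes in depth-matched fetal liver cells, summed per plate, with Mki67+ cells on the left and Mki67- cells on the right of each panel and 1 line per plate. Lines of Birc5, Top2a, Ccnb1, Cdk1, Hist1h2ae and Ube2c slope down to the right on all 5 plates, while those of Pcna, Mcm5, Procr, Hlf and Ly6a cross; plate 5 is lowest for Hist1h2ae.

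Histone genes were among the largest rises. Of 10 tested members of the histone list, 5 rose and none fell, with a median log2 fold change of 0.88. Hist1h2ae, a core histone H2A gene, had 677, 768, 721, 636 and 109.6 CPM in Mki67+ cells of plates 1 to 5, against 179, 133, 35.8, 71.5 and 26.1 CPM in Mki67- cells (2.79 ± 0.25, adjusted p = 4.38e-05). It was higher within every plate, and plate 5 was the lowest plate on both sides. H2afx, the variant H2A.X that is phosphorylated at DNA breaks, had 499, 413, 446, 451 and 69.2 CPM in Mki67+ cells and 229.9, 253, 156, 109.6 and 14.0 CPM in Mki67- cells (1.46 ± 0.19). Hist1h2ap (2.79 ± 0.45), the linker histone Hist1h1e (1.31 ± 0.28) and the H2A.Z variant H2afv (0.45 ± 0.09) were the other called members. Outside the list, Hist1h2af, Hist1h2an and Hist1h2ao rose by 3.53 ± 0.57, 3.49 ± 0.67 and 2.91 ± 0.51, and the linker histone H1f0 by 0.85 ± 0.15. The histone H2A genes are near-identical copies, and their reads may have been split between them, so their separate values are uncertain. The libraries were made from polyadenylated RNA, and how fully or evenly they capture histone transcripts was not tested. Hist1h2an rests on 34 UMIs in Mki67- cells, and Hist1h2af on 40.

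The lists count the histones among the S phase genes, and the other genes of the earlier steps of the cycle gave no call. Of 5 tested cyclin-dependent kinase inhibitors, 12 G1 cyclins and kinases, 13 E2F and pocket protein genes, 16 genes of origin licensing, 29 of the replication fork, 9 of deoxynucleotide synthesis, 11 of chromatin assembly and 12 of homologous recombination, none was called in either direction. Their median log2 fold changes were 0.23, -0.23, 0.29, -0.12, 0.22, 0.37, 0.21 and 0.66. Pcna, the sliding clamp of the replication fork, had 180.1, 196, 201, 257 and 227 CPM in Mki67+ cells of plates 1 to 5, against 312, 278, 234, 135 and 250.2 CPM in Mki67- cells (-0.16 ± 0.20, adjusted p = 0.954). It was lower on 4 plates and higher on plate 4. The licensing helicase subunit Mcm6 averaged 215 ± 50.1 CPM in Mki67+ cells and 258 ± 93.3 CPM in Mki67- cells (SD, n = 5 plates). Ccnd2, a D-type cyclin that answers to growth signals, averaged 626 ± 101 CPM in Mki67+ cells and 759 ± 114 CPM in Mki67- cells (-0.28 ± 0.09, adjusted p = 0.271). The cyclin-dependent kinase inhibitor Cdkn1c averaged 50.5 ± 36.3 CPM in Mki67+ cells and 43.3 ± 27.6 CPM in Mki67- cells, and Cdkn1b averaged 15.0 ± 10.3 and 9.98 ± 6.70 CPM in the same order, with neither called.

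**Figure D2:**
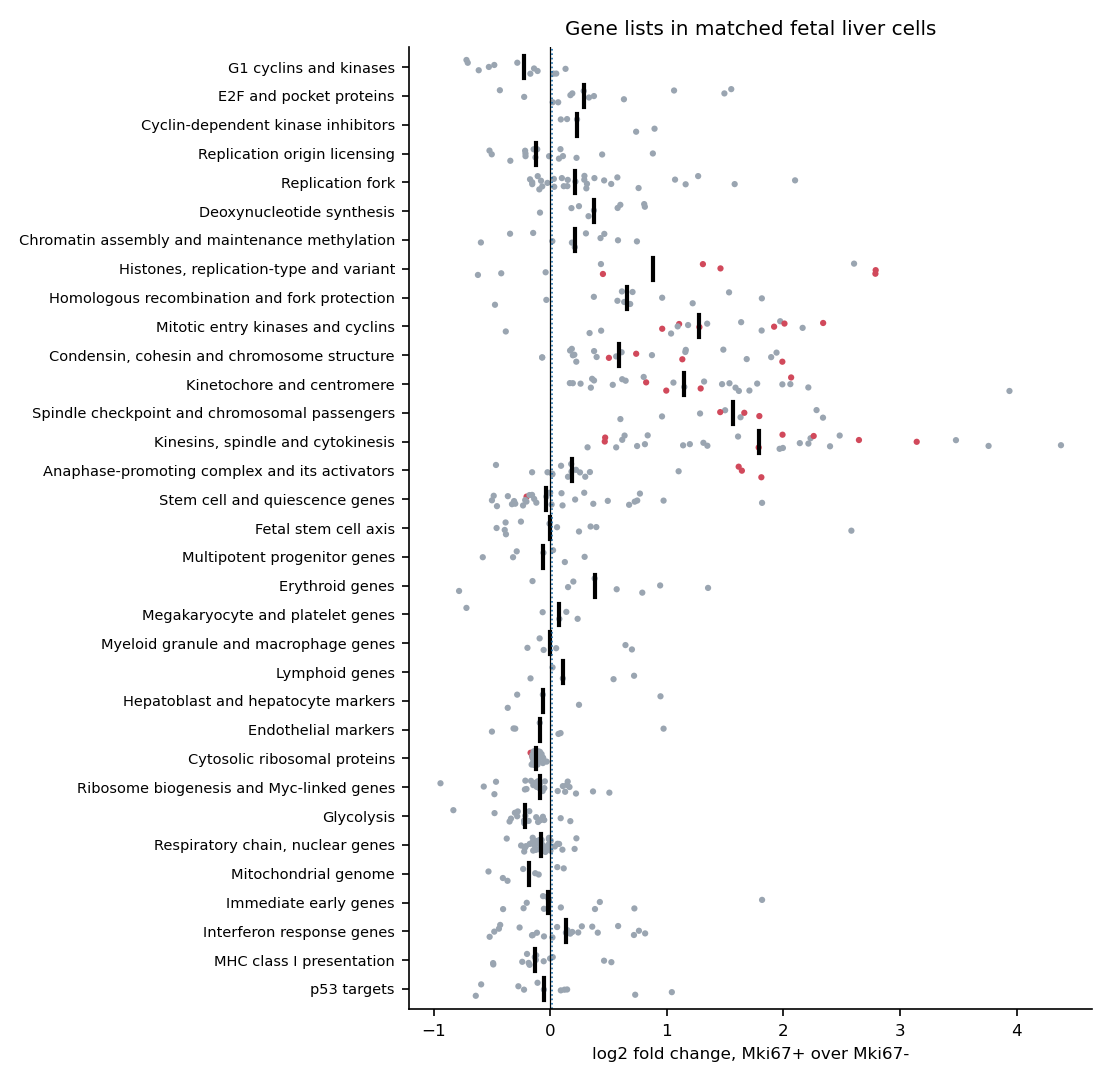
Log2 fold changes of Mki67+ over Mki67- cells for the tested members of 33 gene lists, with called genes in red, other genes in grey, a black bar at each list's median and a dotted line at the median of all tested genes (0.01). The medians of the kinesin, checkpoint, mitotic entry and kinetochore lists lie at 1.15 to 1.79, those of the licensing and G1 lists below 0.

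Stem cell genes gave 1 call between the groups. Of 31 tested stem cell and quiescence genes, Ifitm1, an interferon-induced membrane protein, was the 1 call, and it fell (-0.20 ± 0.04, adjusted p = 0.0439). It had 1783, 2551, 2094, 1875 and 3360.0 CPM in Mki67+ cells of plates 1 to 5 and 2211, 2672, 2330.1, 2267 and 3893 CPM in Mki67- cells. The difference is small beside the spread between plates, and it was seen within each plate. Procr, a receptor used to sort stem cells, averaged 217 ± 36.6 CPM in Mki67+ cells and 271 ± 65.8 CPM in Mki67- cells, and was lower on 4 of 5 plates (-0.31 ± 0.15, adjusted p = 0.739). Hlf, a transcription factor of stem cells, averaged 136 ± 24.7 CPM in Mki67+ cells and 127 ± 23.3 CPM in Mki67- cells (0.10 ± 0.18). Mecom, another stem cell factor, differed by -0.33 ± 0.24, the stem cell antigen Ly6a by -0.12 ± 0.21, the receptor Kit by -0.36 ± 0.30 and the progenitor receptor Flt3 by 0.29 ± 0.35, with none called. None of 11 tested genes of the fetal stem cell axis or 7 multipotent progenitor genes was called. Among the fetal genes Hmga2, a chromatin protein that supports self-renewal before birth, averaged 177 ± 16.9 CPM in Mki67+ cells and 173 ± 39.5 CPM in Mki67- cells. A missed threshold does not show that these levels are alike. The errors printed here for genes not called, 0.15 to 0.35 on the log2 scale, leave room for differences.

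Summed markers of other cell types overlapped between the groups. Summed endothelial markers ran from 909.6 to 1199 CPM in Mki67+ cells and from 934 to 1289 CPM in Mki67- cells, with 15 of 16 detected. Summed erythroid genes ran from 1055 to 3235 CPM and from 956 to 3102 CPM in the same order, with 17 of 21 detected. Myeloid genes ran from 1063 to 1302 CPM in Mki67+ cells and from 1011 to 1293 CPM in Mki67- cells, and hepatocyte markers from 100.3 to 194 CPM and from 81.5 to 176 CPM. Of the endothelial list Lyve1 was at 0, of the erythroid list Car1, Hbb-bh1, Hbb-y and Rhd, of the myeloid list C1qa, Cebpa and Ctsg, and of the hepatocyte list Serpina1b. Megakaryocyte genes ran from 443 to 579 CPM in Mki67+ cells and from 409 to 726 CPM in Mki67- cells, with Gp1bb and Gp6 at 0, and lymphoid genes from 279 to 421 CPM and from 251 to 370.2 CPM, with Bcl11b, Cd3e and Igll1 at 0. Mast cell genes reached at most 8.93 CPM in Mki67+ cells and 12.3 CPM in Mki67- cells, and stromal genes at most 1.75 and 2.46 CPM. None of the members tested in these lists was called.

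The lower genes were mostly ribosomal proteins, and their differences were small in matched cells. All 45 tested members of the ribosomal protein list had log2 fold changes below 0, of which 2 were called, with a median of -0.12. Rpl37, a protein of the large subunit, had 3098, 3987, 3225, 2933 and 4866 CPM in Mki67+ cells of plates 1 to 5, against 3537, 4271, 3665, 3395 and 5439 CPM in Mki67- cells (-0.17 ± 0.03, adjusted p = 0.0209). It was lower within each plate, by less than plates differed from each other. Over all 81 Rpl and Rps symbols tested, a set counted after the values were seen, 80 were below 0 and 7 were called, among them Rpl32, Rpl36, Rpl38, Rps27 and Rps27a beside Rpl37. Many have pseudogene copies that can share reads. The plate medians over these symbols were -0.20, -0.06, -0.18, -0.10 and -0.10 on plates 1 to 5. Arpc1b, a subunit of the complex that branches actin filaments, had 758, 822, 688, 661 and 901 CPM in Mki67+ cells and 964, 926, 876, 922 and 1141 CPM in Mki67- cells (-0.34 ± 0.07, adjusted p = 0.0373). Sdf2l1, a protein of the endoplasmic reticulum, had 19.7, 19.4, 60.2, 19.7 and 7.41 CPM in Mki67+ cells and 92.3, 71.2, 101, 89.0 and 14.9 CPM in Mki67- cells (-1.64 ± 0.36, adjusted p = 0.0493). Glycolysis genes gave 0 calls among 21, with 2 above 0 and a median of -0.21, and nuclear genes of the respiratory chain 0 calls among 38, with a median of -0.08. No member was called among 29 tested genes of ribosome biogenesis (median -0.09), 8 of the mitochondrial genome (-0.18), 12 immediate early genes (-0.02), 23 interferon response genes (0.13), 14 genes of MHC class I presentation (-0.13) or 11 p53 targets (-0.05). When cells were matched on detected genes in place of UMIs, none of the 10 lower genes was called, although all 10 stayed below 0, with a median further from 0 (-0.25, against -0.17 in cells matched on UMIs), and 32 of the 37 higher genes were called. The size of the lower differences moved with the matching: the median over the 81 symbols was -0.13 in cells matched on UMIs, -0.21 in cells matched on detected genes and -0.37 without matching. Rpl37 stood at -0.46 and Sdf2l1 at -0.82 without matching, where Sdf2l1 was not called. With mean depth as a covariate over all cells, 5 of the 10 lower genes were below 0 (median 0.0046). With Mki67+ cells of exactly 1 UMI, 7 of the 10 were below 0 (median -0.017), and neither setting called any of them.

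Cells with a single Mki67 UMI lay near cells with none, and cells with more UMIs had more G2 and M phase genes. Each cell with at least 20000 UMIs was thinned to 20000, and the G2 and M phase genes with a UMI were counted, out of 128 list genes found in the tables. The median was 35 in 267 cells with 0 Mki67 UMIs, 38.5 in 76 cells with 1 UMI, 62 in 30 cells with 2 to 4 and 77 in 46 cells with 5 or more. Just inside the threshold, cells with 1 UMI had plate medians of 36, 34, 34, 33 and 48 on plates 1 to 5, and just outside it, cells with 0 had 38, 33.5, 32, 29 and 48.5. For 101 S phase genes, the listed histones included, the medians were 31, 34.5, 48 and 51 over the same classes. These medians pool plates with unequal levels, and 13 of the 30 cells with 2 to 4 UMIs were on plate 5. Within plates the S phase medians followed that order on plates 2 and 5 and not on the other 3. Plate 1 had 31.5, 31.5, 66 and 47, plate 3 had 33, 32, 43.5 and 50, and plate 4 had 25, 31.5, 69 and 55.5. The class of 2 to 4 held 2 cells on plate 1 and 1 cell on plate 4. The cells with 5 or more UMIs had a median of 94380 UMIs before thinning, against 51090 in cells with 0, so depth differed between the classes even though the thinned counts were equal.

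**Figure D3:**
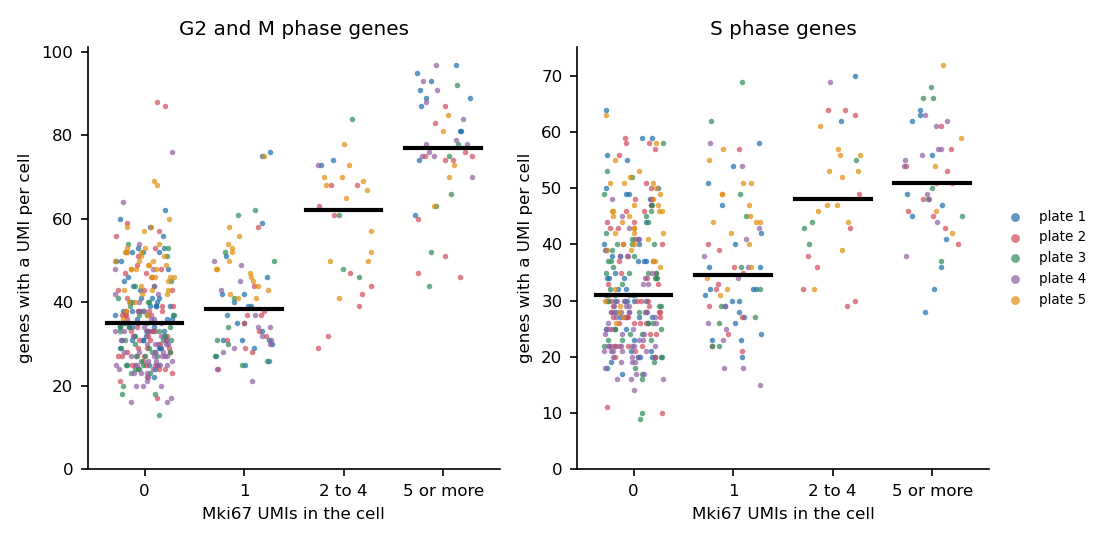
Number of G2 and M phase genes (left) and S phase genes (right) with a UMI in each fetal liver cell after thinning to 20000 UMIs, by the cell's Mki67 UMIs, with 1 point per cell coloured by plate and a black bar at the median. The left medians are 35, 38.5, 62 and 77 from 0 to 5 or more UMIs, and some cells with 0 UMIs lie among the highest.

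Between matched groups, the plate medians of G2 and M phase genes were 48.5, 46, 49, 44 and 52 in Mki67+ cells of plates 1 to 5 and 39.5, 38, 32, 28 and 49 in Mki67- cells. The mean difference was 10.6 ± 5.86 genes (SD, n = 5 plates), higher on 5 of 5 plates, with p = 0.062 in an exact two-sided permutation test, the smallest that 5 plates allow. For S phase genes the medians averaged 41.2 ± 4.19 in Mki67+ cells and 34.9 ± 6.90 in Mki67- cells, a difference of 6.30 ± 4.82, again with p = 0.062 in the exact permutation test. The groups overlapped cell by cell: 23 of 132 matched Mki67- cells had more G2 and M phase genes than the median Mki67+ cell of their plate. For S phase genes the overlap was larger, at 42 of 132. With Mki67+ cells taken from 2 UMIs on, the difference in G2 and M phase genes was 33.1 ± 12.6.

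The fit over all genes showed the same split. With Mki67+ cells of 2 or more UMIs, 68 on each side, 49 genes were higher (0.68% of 7205 tested) and 2 lower (0.0278%), 0.708% in all, and 34 of the 36 tested among the 37 were called again on these overlapping cells, with a median log2 fold change of 2.18. With cells of exactly 1 UMI, 76 on each side, edgeR called 0 of 6354 genes, against 177 at an unadjusted p under 0.05. Of 32 tested genes among the 37, 11 had log2 fold changes above 0, with a median of -0.22 and a range of -1.93 to 0.84. Both restrictions on UMIs use fewer cells than the whole comparison, and no test was made of the difference between them.

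**Figure D4:**
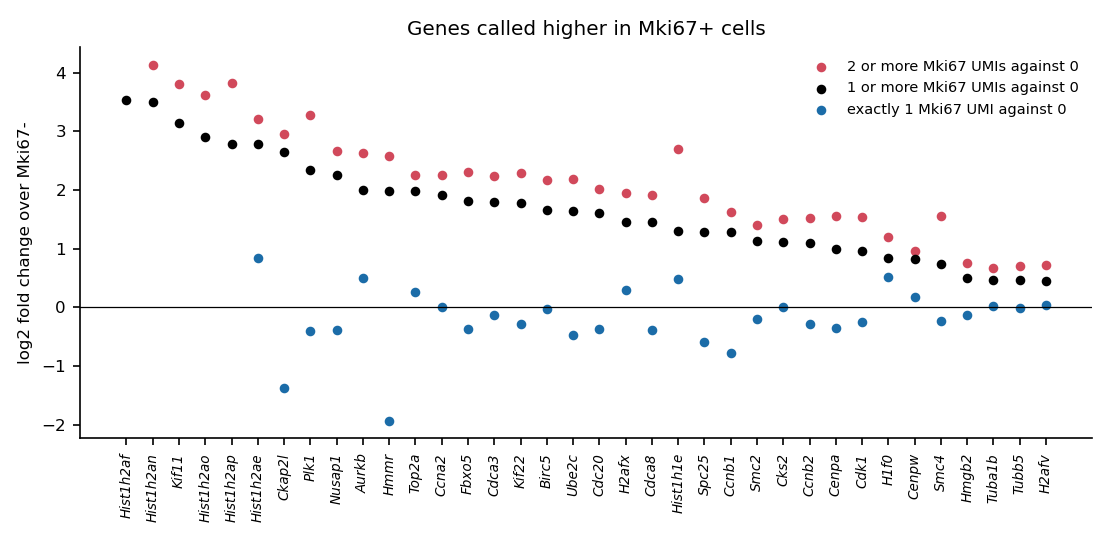
Log2 fold change over Mki67- cells of 36 of the 37 genes called higher, for Mki67+ cells with 2 or more UMIs (red), 1 or more (black) and exactly 1 (blue), each matched anew to cells with 0 UMIs. Red points lie above black points for every gene tested in both. Blue points lie on both sides of 0, more of them below, and the median over all 32 tested of the 37 is -0.22. Genes not tested in a comparison have no point.

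The promoters of the higher genes were read in the RefSeq windows of 300 bases, from 250 before to 50 after each annotated start (GRCm38.p6). A window was at hand for 25 of the 37 genes. Aurkb, Ccna2, H2afv, H2afx, Hist1h1e, Hist1h2ae, Hist1h2af, Hist1h2an, Hist1h2ao, Hist1h2ap and Smc4 were among those not matched. The cell cycle homology element TTTGAA, through which late cell cycle genes are held silent in resting cells and switched on towards mitosis, occurred on either strand in 18 of 25 windows (72.0%), against 12.5% of the 9183 windows of all tested genes and 17.9% of all 32851 windows. The CCAAT box, bound by the factor NF-Y, occurred in 21 windows (84.0%), against 37.8% and 37.4%. All 18 windows with the first motif also held the second (72.0%), which 5.10% of tested windows and 6.95% of all windows did. The letters searched for E2F, which marks genes of the G1 to S transition, were TTCGCGC as the first form, then the variant form TTGGCGC and as a last form TTCCCGC. They occurred in 4 windows (16.0%), against 15.1% and 8.07%. Top2a and Ube2c each held 6 CCAAT boxes, while the windows of Birc5, H1f0, Nusap1 and Tuba1b held none of these motifs. These letters describe the windows and show no binding.

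Below are the windows of Mki67 itself and of the 4 called genes with the smallest adjusted p among the 18 that hold both motifs, read 5′ to 3′ on the gene's strand, with the cell cycle homology element and the CCAAT box in capitals wherever either strand holds them. They lie at chr7:135716330-135716629, minus strand, for Mki67, at chr9:70421505-70421804, minus strand, for Ccnb2, at chr8:57511593-57511892, plus strand, for Hmgb2, at chr6:124829926-124830225, plus strand, for Cdca3, and at chr4:124936868-124937167, minus strand, for Cdca8. Ccnb2 and Cdca3 show 3 CCAAT boxes each and Hmgb2 and Cdca8 show 4, and in Cdca8 one of them overlaps the TTTGAA.
Mki67: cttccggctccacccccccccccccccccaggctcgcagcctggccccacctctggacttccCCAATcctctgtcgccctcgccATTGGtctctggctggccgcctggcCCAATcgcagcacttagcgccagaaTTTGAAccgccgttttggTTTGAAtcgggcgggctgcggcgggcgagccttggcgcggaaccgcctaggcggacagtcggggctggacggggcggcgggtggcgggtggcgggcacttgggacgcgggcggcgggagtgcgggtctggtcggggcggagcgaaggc
Ccnb2: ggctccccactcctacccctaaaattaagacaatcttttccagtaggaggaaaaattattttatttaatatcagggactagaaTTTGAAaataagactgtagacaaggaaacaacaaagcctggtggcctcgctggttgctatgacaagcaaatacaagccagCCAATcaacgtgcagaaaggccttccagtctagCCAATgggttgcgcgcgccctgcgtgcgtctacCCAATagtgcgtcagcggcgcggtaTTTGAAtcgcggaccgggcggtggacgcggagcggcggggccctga
Hmgb2: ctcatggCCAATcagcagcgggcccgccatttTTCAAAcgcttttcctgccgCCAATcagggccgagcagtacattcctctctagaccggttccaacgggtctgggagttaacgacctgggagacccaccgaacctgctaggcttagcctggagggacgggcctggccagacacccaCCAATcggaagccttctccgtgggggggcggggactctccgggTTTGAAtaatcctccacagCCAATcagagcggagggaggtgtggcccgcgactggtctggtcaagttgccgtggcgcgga
Cdca3: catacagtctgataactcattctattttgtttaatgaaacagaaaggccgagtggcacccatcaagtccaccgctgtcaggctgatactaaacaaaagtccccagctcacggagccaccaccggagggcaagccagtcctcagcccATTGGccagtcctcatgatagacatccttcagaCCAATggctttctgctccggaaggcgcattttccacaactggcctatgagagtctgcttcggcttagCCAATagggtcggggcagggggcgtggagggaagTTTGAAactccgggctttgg
Cdca8: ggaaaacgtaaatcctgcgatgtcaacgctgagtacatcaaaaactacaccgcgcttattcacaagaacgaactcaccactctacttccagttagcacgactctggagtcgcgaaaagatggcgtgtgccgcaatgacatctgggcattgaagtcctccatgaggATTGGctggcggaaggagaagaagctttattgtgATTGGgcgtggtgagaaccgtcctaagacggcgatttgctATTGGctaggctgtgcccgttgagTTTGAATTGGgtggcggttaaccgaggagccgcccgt

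**Figure D5:**
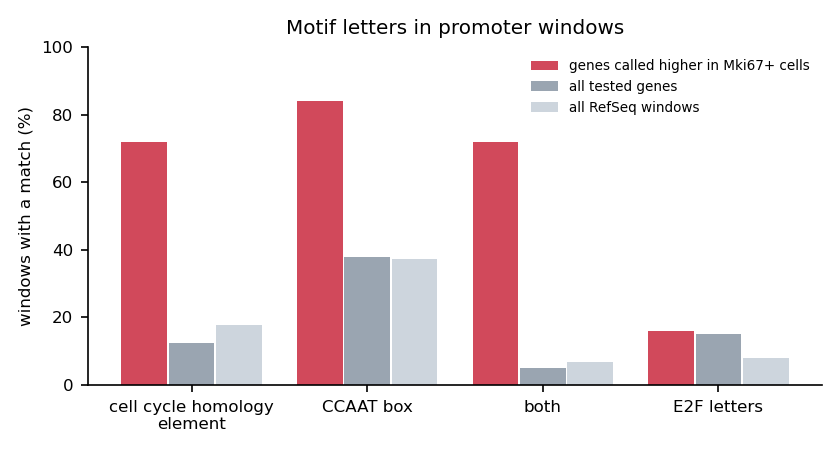
Share of promoter windows, in percent, that hold each motif on either strand, for genes called higher in Mki67+ cells (25 windows), for all tested genes (9183) and for all RefSeq windows (32851). The first bars stand at 72.0%, 84.0% and 72.0% for the cell cycle homology element, the CCAAT box and both, and at 16.0% for the E2F letters.

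The same contrast was set beside bone marrow, where 60 of 423 cells were Mki67+ and 57 pairs could be matched over 5 plates. Bone marrow plates 4 and 5 take their tissue from the sample titles. Of the 37 genes, 31 could be tested in bone marrow, and all 31 had log2 fold changes above 0 there, as did 52.8% of all genes tested. The filter on low counts can pass a gene through its Mki67+ side alone, which favours that direction, so the count is no independent support. Without Hmmr, with 1 UMI in Mki67- cells, the median of the other 30 was 1.76. In bone marrow alone 0 of 5835 genes were called in edgeR (0.0%), against 242 at an unadjusted p under 0.05, and the smallest adjusted p was 0.0953. The difference between fetal liver and bone marrow passed the threshold for 0 of 9761 genes in edgeR, or 0.0%, against 490 at an unadjusted p under 0.05, 4 without the filter on low counts and 90 with DESeq2. Of the 37, 6 had an unadjusted p under 0.05, and the smallest adjusted p of all genes was 0.174. It belonged to Hmmr, which had 537 UMIs in Mki67+ and 1 UMI in Mki67- bone marrow cells, too few for a fold. Ccnb2 had log2 fold changes of 1.11 ± 0.16 in fetal liver and 4.04 ± 0.82 in bone marrow (difference -2.78 ± 0.60, adjusted p = 0.379). Hist1h2ae had 2.79 ± 0.25 in fetal liver and 2.33 ± 0.65 in bone marrow. The bone marrow values rest on 5 to 17 pairs of cells per plate.

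Within fetal liver, the 37 genes had log2 fold changes above 0 in both origin codes, which choosing them on all 5 plates favours. On plates 4 and 5 all 35 genes that could be tested had log2 fold changes above 0, with a median of 1.34, and 2 were called again. On plates 1 to 3 all 37 were above 0, with a median of 1.69, and 12 were called again. The difference between the codes passed the threshold for 0 of 11123 genes in edgeR, against 374 at an unadjusted p under 0.05 and 7 with DESeq2. H2afx gave a difference of 1.03 ± 0.32 and Top2a of -0.94 ± 0.53, plates 4 and 5 minus plates 1 to 3, with an adjusted p of 1 for both.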

How the data were processed

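Single cells were sorted into 96-well plates, nuclei were taken away on beads and the cytoplasmic polyadenylated RNA was sequenced by a modified scSTRT-seq protocol, per the labels' protocols. The authors deposited raw UMI counts per gene symbol and well. UMI-tools, featureCounts, SAMtools and the mm10 genome are named per the submitters' processing notes, without versions. The annotation and the strand rule of the counting are, in the sources used here, not given. Reads of a gene and of its antisense partner or near-identical copies may therefore be mixed. Of the tested symbols 99.3% matched a mouse gene name table.

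Wells were filtered as in the report. No doublet caller was run, since cells were sorted singly, and cells were not clustered. Mki67+ and Mki67- cells were matched within plates by the assignment with the smallest summed difference in log2 UMIs without Mki67, and pairs over 0.5 apart were dropped. UMIs were summed per plate and side, giving libraries of 1207237 to 2249811 UMIs over tested genes, and tested with the quasi-likelihood method of edgeR 4.0.16 under R 4.3.3, using TMM, filterByExpr and plate as a block. The fit had 4 residual and 12.6 prior degrees of freedom and a biological coefficient of variation of 0.497. The SE is approximate and equals the log2 fold change over the root of F. CPM use TMM-scaled library sizes. All adjusted p-values of genes are Benjamini-Hochberg values from this test. limma 3.58.1 and DESeq2 1.42.0 were alternatives. The test was checked on simulated data for the fetal liver comparison, with 50 changed genes per size. It recovered 6% of 1.5-fold, 24% of 2-fold, 56% of 4-fold and 78% of 8-fold changes. Among changed genes of at least 50 CPM it recovered 14.3%, 68.75%, 100% and 100% in the same order. Per cell counts used Python 3.11.15 and scipy 1.17.1, with exact sign-flip permutation over plates.

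Both sides of a plate deviated together (r of 0.165, 0.174, 0.134, 0.162 and 0.642 for plates 1 to 5), so the plate pairs them. The members, the 35 gene lists and the tests were chosen with earlier results of these data known. Genes named are up to 10 largest rises and falls on all plates with at least 20 CPM on the higher side, up to 4 called members of each list by adjusted p (or the 2 most abundant where none was called), and a set of cycle and stem cell genes; Cks2, H1f0, Tubb5, Ccna2, Hist1h1e, Mcm5 and the called ribosomal proteins outside that rule were named after their values were seen. Some genes that the rule names are not reported here.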

Additional observations from a re-analysis of the deposited data

Results flagged for a closer look

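Of 131 results compared over the 5 plates, 8 had a plate far from the other 4 by Dixon's test, and chance flags about 1 in 20 groups. Values are log2 CPM in Mki67+ minus Mki67- cells on the plate that stood apart.

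Among called genes, Fbxo5, the inhibitor of the anaphase-promoting complex, differed by 0.54 on plate 2, against 1.8 to 2.29. Rpl38 differed by -0.10 on plate 4, against -0.18 to -0.17 elsewhere. Both kept their direction on all plates.

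Among genes that were not called, Procr, a stem cell receptor, differed by 0.36 on plate 5, while plates 1 to 4 lay between -0.52 and -0.42. Hlf, a stem cell transcription factor, differed by -0.17 on plate 1, against 0.12 to 0.21 on the others. Tipin, a fork protection factor, differed by 0.44 on plate 2, and Bst2, an interferon response gene, by -0.96 on plate 3. Hbb-bt, an adult beta globin, differed by 2.81 on plate 4, where it had 6.56 CPM in Mki67+ cells and 0 CPM in Mki67- cells, so that value rests on few UMIs. On plates 1 to 3 Hbb-bt had 1429 to 2207 CPM in Mki67+ cells and 2007 to 2236 CPM in Mki67- cells, and on plate 5 it had 34.6 CPM in Mki67+ cells and 45.7 CPM in Mki67- cells. The median difference over the ribosome biogenesis and Myc-linked list was -0.36 on plate 1.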

How the results depend on the processing

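Against 47 genes called in the matched cells, the count was 195 without matching, 183 with all cells thinned to 20000 UMIs, 25 with pairs within 0.25, 99 without the filter on low counts, 278 with DESeq2, 132 with limma-voom, 2 on plates 4 and 5 alone, 14 on plates 1 to 3 alone, and 113 with plates summed per origin code. The last of these counts rests on only 2 pairs of libraries, a pair for each origin code. Leaving out a plate gave 5 to 43. Without matching, 97 of the 195 were higher and 98 lower. The 37 higher genes that could be tested kept log2 fold changes above 0 under all of these, and the 10 lower genes stayed below 0. Without the replicate block, that is without pairing by plate, 1 gene was called, and all 37 remained above 0 (median 1.47).

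The counts were 0 under 3 settings: mean depth as a covariate over all cells (439 genes at an unadjusted p under 0.05), cells with a UMI counted in place of UMIs (60) and, added after the data were seen, exactly 1 Mki67 UMI (177); the cause was not tested. With depth as a covariate the log2 fold change turned to -0.50 for Kif11, -0.22 for Ckap2l, -0.37 for Aurkb, -0.52 for Spc25, -0.15 for Kif22 and -0.987 for Ube2c, and to 0.011 for Ifitm1, 0.027 for Rps27a, 0.041 for Rps27 and 0.084 for Rpl32. With cells counted it turned to -0.0177 for H2afx, -0.094 for H2afv, -0.075 for Ccnb1, -0.00965 for Cdk1, -0.10 for Hmgb2, -0.0030 for Cenpa, -0.032 for Cenpw, -0.059 for Birc5, -0.011 for Cdca8, -0.094 for Tuba1b and -0.026 for Ube2c. With exactly 1 UMI it turned to -1.38 for Ckap2l, -0.40 for Plk1, -0.38 for Nusap1, -0.29 for Ccnb2, -0.78 for Ccnb1, -0.25 for Cdk1, -0.14 for Hmgb2, -0.20 for Smc2, -0.23 for Smc4, -0.60 for Spc25, -0.35 for Cenpa, -0.021 for Birc5, -0.13 for Cdca3, -0.38 for Cdca8, -1.93 for Hmmr, -0.27 for Kif22, -0.36 for Cdc20, -0.47 for Ube2c and -0.37 for Fbxo5, and to 0.026 for Ifitm1, 0.0030 for Rpl36 and 0.0087 for Rpl32.

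For the difference between fetal liver and bone marrow, 0 calls became 4 without the filter and 90 with DESeq2, and leaving out a plate gave 0. For the difference between origin codes, 0 became 1 without matching, 1 without the filter, 7 with DESeq2, and 0 to 10 when a plate was left out. The per cell differences were above 0 on every plate under the settings run (thinning, matching, 2 or 5 UMIs and a plate left out), from 8.70 to 36.2 G2 and M phase genes; exactly 1 UMI was not run there. Settings from 5 UMIs and matching on detected genes were added after the data were seen and gave 51 and 41 calls.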
